A study of Mus musculus with 8 samples.

Results

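Of the 48440 genes in the deposited tables, 44 encode collagen chains, selected by symbols built only from Col, a number, the letter a and a second number. By class these were 11 chains of fibrillar collagens, 6 of the type IV network of basement membranes, 3 of short-chain networks, 9 of fibril-associated collagens and 6 of type VI beaded filaments. The other members were the type VII anchoring fibril chain, 2 multiplexins, 4 transmembrane collagens and 2 chains outside these classes. Polyadenylated RNA was sequenced from whole mouse gonads at embryonic day 11.5, the stage at which XY gonads commit to testis development. The 4 groups were XY Kdm6b-null, XY wild type, XX Kdm6b-null and XX wild type gonads, with 2 libraries in each. Kdm6b encodes a demethylase of histone H3 lysine 27. The protocols in the labels describe pools of 2 pairs of gonads per replicate but count 4 samples, against 8 labelled libraries. Whether the 2 libraries of a group are separate pools is therefore not settled, embryos within a library cannot be told apart, and the labels give neither the strain, the null allele nor the litters. The labels name pre-Sertoli cells for XY and pre-granulosa cells for XX samples but describe no sorting.

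A collagen molecule is a triple helix of chains, which are folded and hydroxylated in the endoplasmic reticulum, trimmed outside the cell and then joined into fibrils or sheets. Fibrillar collagens carry tension in connective tissue, whereas type IV collagen forms, with laminin, nidogen and perlecan, the sheet that underlies epithelia and surrounds blood vessels. In the fetal gonad such a basement membrane lies beneath the coelomic epithelium and around vessels, and later encloses the testis cords.

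Levels are the deposited normalized counts, which are read counts scaled by the authors so that libraries of 1 sex can be compared. Libraries held 19107103 to 19828638 counts on genes, and a count of 0 allows up to 3 counts, or 2.91 to 3.09 normalized counts, counting error only. Kdm6b had 1238 and 1037 normalized counts in XY Kdm6b-null and 3399 and 3181 in XY wild type libraries. In XX it had 1249 and 1125 normalized counts in XX Kdm6b-null and 2218 and 2796 in XX wild type libraries, so no null library reached a wild type library of its sex. The null mean was 34.6% of the wild type mean in XY and 47.4% in XX, with limma adjusted p = 0.12 and 0.19. For XY the authors' deposited DESeq2 comparison gave Kdm6b an adjusted p of 8.2e-25. The deleted stretch of Kdm6b is not given, so a whole-gene count does not measure it alone. The gonadal somatic genes Gata4, Nr5a1, Wt1, Lhx9 and Emx2 were present in all 8 libraries. The XX wild type libraries differed from each other more than the pairs of other groups, their log2 values over genes correlating at 0.965 against 0.980 to 0.985 in the other groups. They also had more mitochondrial reads, 3.12% and 2.55% of counts against 1.90 to 2.22% elsewhere. XX fold changes are therefore given below with and without each of them, by limma on the remaining 3 XX libraries. The sexes were normalized separately, so levels set across sexes rest on 2 scalings.

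Collagen transcripts made up 0.825 and 0.602% of all counts in XY Kdm6b-null and 0.698 and 0.789% in XY wild type libraries. In XX libraries the shares were 0.700 and 0.759% in Kdm6b-null and 0.802 and 0.606% in wild type gonads. In each sex the groups overlapped, because the 2 libraries of 1 group lay as far apart as the groups did. Col1a1, Col1a2 and Col3a1, which build the type I and type III fibrils, supplied 48.4 to 53.6% of the collagen counts of every library. Of the 44 chains, 41 averaged at least 10 normalized counts over the 8 libraries and 35 at least 100. The highest level per kb of exon belonged to Col3a1, with a mean of 3154 normalized counts per kb, ranging from 2569 to 3632 over the libraries. Col1a1 averaged 3034 per kb (range 1973 to 3843), which overlapped Col3a1. Next came Col1a2 at 1655 per kb (range 1361 to 1991), Col4a1 of type IV collagen at 1432 (range 933 to 1881), the multiplexin Col18a1 at 1173 (range 782 to 1358) and Col4a2 at 976 (range 647 to 1330.4). Each of these ranges overlapped that of the next chain in the order. Within a library, Col1a1 lay above Col1a2 and Col18a1 above Col4a2 in all 8 libraries. The other neighbours in the order changed places between libraries. At the other end, Col10a1 of hypertrophic cartilage averaged 0.239 per kb, with 0 and 0 normalized counts in XY Kdm6b-null, 1.98 and 1.00 in XY wild type libraries, then 1.99 and 0 in XX Kdm6b-null and 0 and 1.01 in XX wild type libraries. Col28a1 had 2.93 and 4.12 in XY Kdm6b-null, 8.90 and 3.99 in XY wild type libraries, then 7.97 and 3.03 in XX Kdm6b-null and 9.70 and 7.08 in XX wild type libraries. These 2 chains and Col19a1, with 0 to 16.2 normalized counts, stayed below the mean of 10 that a test required. Col6a5 was tested in XX but not in XY, where it had 6.83 and 20.6 normalized counts in XY Kdm6b-null and 7.91 and 3.99 in XY wild type libraries.

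**Figure D1:**
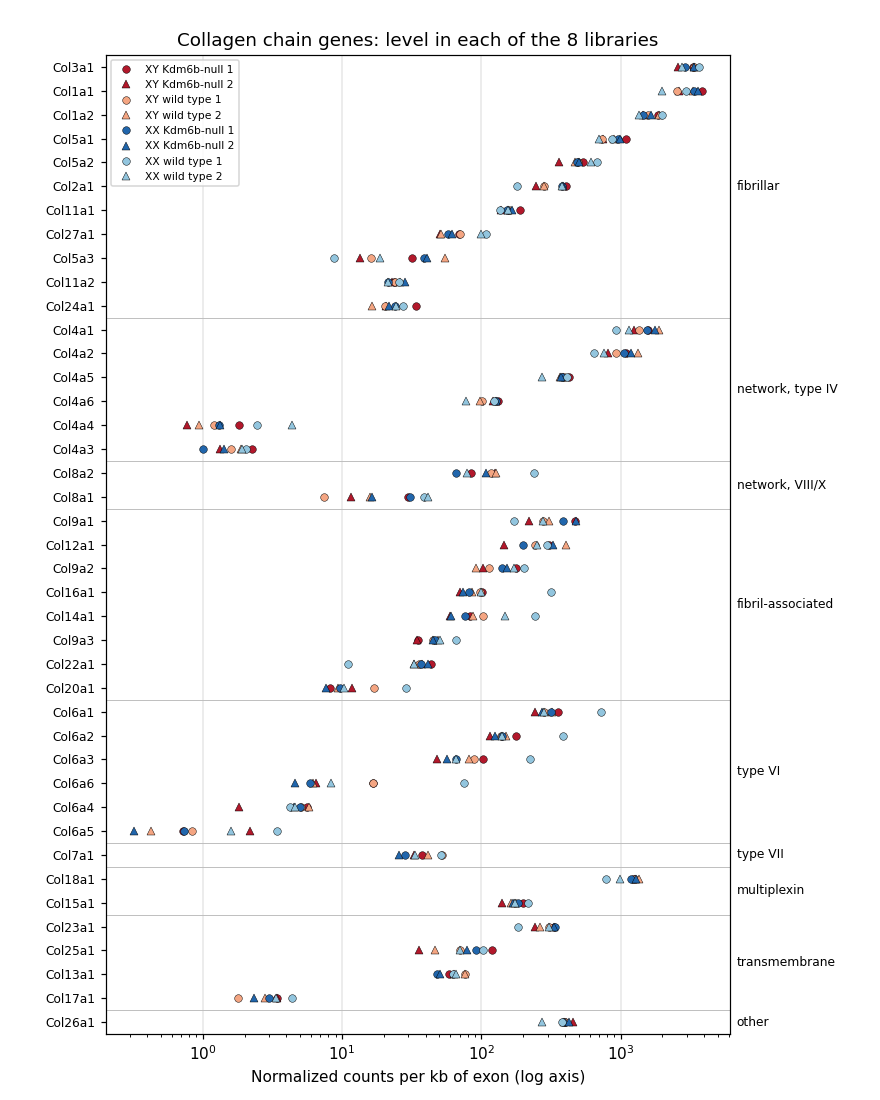
Level of the 41 chains with a mean of at least 10, in normalized counts per kb of exon on a log axis, by class; each symbol is 1 library. Col3a1 and Col1a1 lie highest, and in type VI the XX wild type replicate 1 symbol lies to the right of the other libraries for Col6a1, Col6a2, Col6a3 and Col6a6.

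Several chains are encoded side by side, and the starts of the type IV pairs are shown because the paired chains are compared below. Coordinates are GRCm38. Col4a1 (ENSMUSG00000031502.11, chromosome 8, 11198423 to 11312826, minus strand) and Col4a2 (ENSMUSG00000031503.13, 11312805 to 11449287, plus strand) are transcribed away from each other. The annotated genes overlap by 22 bases, shown on the Col4a2 strand, and no source used here says whether counting used strand, so reads in the overlap cannot be assigned. Col4a4 and Col4a3 diverge on chromosome 1 with 71 bases between their starts, shown whole on the Col4a4 strand. Col4a6 and Col4a5 diverge on the X chromosome 1308 bases apart, and 216 bases before the deposited start of each are shown on the strand of that gene. RefSeq places the Col4a5 start further into the gene, with the starts of the pair 1343 bases apart. The bases just before RefSeq's Col4a5 start were not searched. The window shares given for Col4a5 are therefore over bases farther from the start than those for Col4a6. Capitals mark GGGCGG (GC box) or CCAAT, searched on both strands, so that CCGCCC and ATTGG also count.
Col4a1 and Col4a2 overlap, chr8:11312805-11312826: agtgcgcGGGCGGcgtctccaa
Col4a4 to Col4a3, chr1:82586850-82586920: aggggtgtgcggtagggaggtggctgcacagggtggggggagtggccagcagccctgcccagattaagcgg
Col4a5 upstream, chrX:141475169-141475384: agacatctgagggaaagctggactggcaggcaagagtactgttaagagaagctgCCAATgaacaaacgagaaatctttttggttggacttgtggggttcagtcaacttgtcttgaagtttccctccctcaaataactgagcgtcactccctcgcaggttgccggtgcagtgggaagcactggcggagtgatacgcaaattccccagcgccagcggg
Col4a6 upstream, chrX:141474077-141474292: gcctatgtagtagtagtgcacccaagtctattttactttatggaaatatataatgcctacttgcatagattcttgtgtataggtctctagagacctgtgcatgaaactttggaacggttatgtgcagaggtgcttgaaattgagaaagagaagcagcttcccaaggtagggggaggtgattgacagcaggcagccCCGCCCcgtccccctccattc
The sequences come from RefSeq's promoter windows for GRCm38.p6, in which 35 of the 44 chains matched by symbol. A GC box stood in the overlap of Col4a1 and Col4a2, as in 4.09% of the same 22 bases of 32817 RefSeq windows, and in the stretch before Col4a6, as in 31.6% of windows. None stood in the 71 bases between Col4a4 and Col4a3 (20.7% of windows hold one there) or in the 216 bases before Col4a5 (27.9%). A CCAAT match was found only before Col4a5, as in 30.5% of windows, and none of the 4 stretches held TATAAA on either strand.

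The first comparison asked how collagen transcripts differ without Kdm6b in gonads that carry Sry. In XY gonads no chain passed by limma after Benjamini-Hochberg adjustment over all 16821 genes tested, where 0.0% of genes passed. Fold changes are log2 of Kdm6b-null over wild type, on log2(normalized count + 1), and stand in parentheses after the values with their standard errors. The 40 chains tested had log2 fold changes from -0.75 to 0.78 with a median of -0.02, 18 positive and 22 negative, and the median of all genes was 0.00. Only Col4a6 was higher at an unadjusted p under 0.05 (1 of 40, against 2.11% of all genes), and Col7a1, Col9a3 and Col13a1 were lower (3 of 40, against 2.85%). Both null libraries lay above both wild type libraries for 5 chains (16.6% of all genes) and below them for 6 (16.3%). The authors' deposited table called 0 of 41 chains higher (0.123% of all genes) and 0 of 41 lower (0.279%). The XY Kdm6b-null libraries lay on opposite sides of wild type. Relative to the wild type mean, the median chain stood at 0.22 in null replicate 1 and at -0.26 in null replicate 2 on the log2 scale. With 2 libraries a group, an exact permutation test of 1 value cannot give a two-sided p below 0.333. The limma p-values weigh a difference against a spread estimated from these libraries only, in part over all genes together.

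The second comparison asked the same of XX gonads, which lack Sry. By limma no chain passed after Benjamini-Hochberg adjustment over all 17028 genes, where again 0.0% of genes passed, and the smallest adjusted p of a chain was 0.19 (Col27a1). At an unadjusted p under 0.05, 5 of 41 chains were higher, against 9.34% of all genes, and 9 of 41 were lower, against 4.65%. Both null libraries lay above both wild type libraries for 12 of the 41 chains (27.0% of all genes) and below them for 17 (22.5%). The share of all genes that lay on the same side in both sexes is not given here. Chains named below for that order therefore have no background beside them. The median log2 fold change was -0.14, with 16 positive and 25 negative, against 0.00 over all genes. In the authors' deposited table Col4a1, Col4a2, Col5a3 and Col9a1 rose, which is 4 of the 37 chains with an adjusted p (1.95% of all genes). Col14a1 and Col27a1 fell in the authors' deposited table, 2 of 37 (0.823% of all genes). In RNA from whole gonads, fewer cells of a type and less RNA per cell cannot be told apart.

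Markers of other cells were summed in the same libraries. The 8 erythroid markers summed to 119134 and 113016 normalized counts in XX Kdm6b-null and 184955 and 240823 in XX wild type libraries, with 7 of 8 log2 fold changes negative and a median of -0.41, or -1.01 without wild type replicate 1 and 0.15 without replicate 2. The 5 early gonad somatic markers summed to 9572 and 9535 normalized counts in XX Kdm6b-null and 8495 and 6924 in XX wild type libraries, 5 of 5 positive, with a median of 0.33, or 0.49 without wild type replicate 1 and 0.10 without replicate 2. Of 6 mesonephros and duct markers tested 5 were positive, with a median of 0.48, or 0.84 without wild type replicate 1 and 0.10 without replicate 2. In XY the gonad somatic sum was 8412 and 12852 normalized counts in XY Kdm6b-null and 12697 and 14465 in XY wild type libraries, 0 of 5 positive (median -0.68), and the erythroid sum was 68259.5 and 209173 normalized counts in XY Kdm6b-null and 59719 and 102506 in XY wild type libraries, 8 of 8 positive (median 0.45). Of 6 pre-Sertoli and Sertoli markers 5 were negative in XY (median -1.32). Macrophage markers had medians of 0.28 in XY and -0.19 in XX, the XX value being 0.11 without wild type replicate 1 and -0.53 without replicate 2. Germ cell markers had 0.36 in XY and -0.03 in XX, the XX value being 1.02 without wild type replicate 1 and -1.26 without replicate 2. The XX side of the erythroid, macrophage and germ cell lists thus turned with the wild type library kept. The part of these cells in the collagen values was not tested.

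The XX calls depended on which wild type library was kept. Without XX wild type replicate 1, limma called 9 of 41 chains at an adjusted p under 0.05, against 2.17% of all genes. Without replicate 2 it called 21, against 20.5%. Each count assumes that the lone wild type library varies like the null pair, in which the median chain differed by 0.16 on the log2 scale, against 0.20 to 0.55 between the libraries of the other groups. Col4a2, Col5a3, Col14a1 and Col27a1 were called in both settings, 4 of 41 against 1.54% of all genes, and 32 of 41 chains had 1 sign in both, against 66.8% of all genes. Both settings hold the same null libraries, so they are not independent. Called without replicate 1 but not without replicate 2 were 5 chains, Col1a1, Col4a5, Col4a6, Col5a1 and Col26a1. Called without replicate 2 but not without replicate 1 were 17 chains, among them Col4a1, Col18a1, Col7a1, Col16a1, Col22a1 and 5 of type VI. The median chain stood at 0.03 without replicate 1, with 23 of 41 positive, and at -0.29 without replicate 2, with 14 positive.

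**Figure D2:**
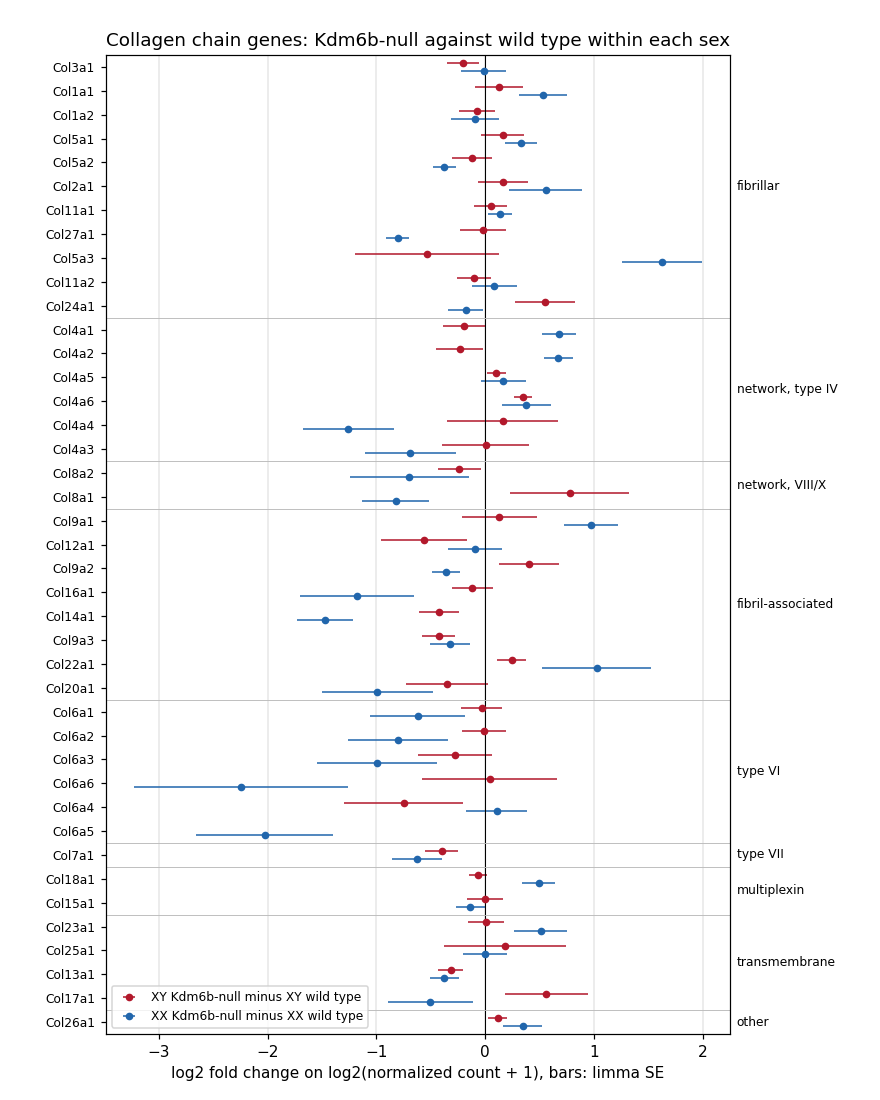
Log2 fold change of each tested chain on log2(normalized count + 1), Kdm6b-null minus wild type, with limma standard errors; red points are XY and blue points XX, 2 libraries per group. The XX points of Col5a3, Col9a1, Col4a1 and Col4a2 lie right of 0 and those of Col14a1 and Col27a1 left of 0.

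Col4a1 and Col4a2, which join as the common network of nearly all basement membranes, were each higher in both XX Kdm6b-null libraries than in either XX wild type library. Col4a1 had 11614 and 13169.5 normalized counts in XX Kdm6b-null and 6963 and 8598 in XX wild type libraries, a log2 fold change of 0.68, SE 0.15, unadjusted p = 0.0059 by limma. Col4a2 had 6985 and 7853 normalized counts in XX Kdm6b-null and 4284 and 5056 in XX wild type libraries (0.67, SE 0.13, unadjusted p = 0.0031 by limma). The authors' deposited table gave 0.67 (adjusted p = 0.0019) for Col4a1 and 0.67 (adjusted p = 9.6e-04) for Col4a2. The log2 fold change was 0.52 with XX wild type replicate 1 left out and 0.83 with replicate 2 left out for Col4a1, and 0.55 with XX wild type replicate 1 left out and 0.79 with replicate 2 left out for Col4a2. Col4a1 missed the adjusted threshold by limma in the first setting (adjusted p = 0.057).

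In XY gonads the same pair overlapped between genotypes. Col4a1 had 11714 and 9283 normalized counts in XY Kdm6b-null and 10154 and 14040.4 in XY wild type libraries (-0.20, SE 0.19). Col4a2 had 7217 and 5367 normalized counts in XY Kdm6b-null and 6098 and 8806 in XY wild type libraries (-0.24, SE 0.22). XY wild type replicate 2 was the highest library for both, and without it their XY log2 fold changes were 0.04 and 0.03. Per kb, Col4a1 stood at 1.41 to 1.53 times Col4a2 in the 8 libraries, so the pair moved together from library to library.

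Summed blood vessel markers, like this pair, were higher in both XX Kdm6b-null libraries than in either XX wild type library and overlapped in XY. The summed level of the 10 endothelial markers was 18394 and 18271 normalized counts in XX Kdm6b-null and 12256 and 13576 in XX wild type libraries, with 10 of 10 log2 fold changes positive and a median of 0.40, or 0.36 without wild type replicate 1 and 0.52 without replicate 2. In XY it was 16557 and 15485 in Kdm6b-null and 15968 and 21002 in wild type libraries, with 9 of 10 negative (median -0.23). The 6 smooth muscle and pericyte markers summed to 13890.2 and 17387 normalized counts in XX Kdm6b-null and 7624 and 8439 in XX wild type libraries, 6 of 6 positive, with a median of 0.85, or 0.91 without wild type replicate 1 and 0.82 without replicate 2. Their XY sums were 12251 and 9332 in Kdm6b-null and 9428 and 17342 in wild type libraries, 4 of 6 negative. None of the 16 markers was at 0 in any library, and their part in the type IV result was not tested.

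The X-linked chains Col4a5 and Col4a6, which join in a further type IV network, had XX fold changes that depended on the wild type library kept. Col4a5 had 2878 and 2591 normalized counts in XY Kdm6b-null and 2622 and 2471 in XY wild type libraries (0.10, SE 0.08). Its XX values were 2537 and 2496 normalized counts in XX Kdm6b-null and 2763 and 1821 in XX wild type libraries (0.17, SE 0.20), and the groups overlapped in both sexes. The XX value of Col4a5 was 0.47 without wild type replicate 1 and -0.13 without replicate 2, with limma adjusted p = 0.038 in the first setting. Col4a6 had 1049 and 972 normalized counts in XY Kdm6b-null and 802 and 788 in XY wild type libraries (0.34, SE 0.08, unadjusted p = 0.0076 and adjusted p = 0.78 by limma). In XX gonads Col4a6 had 1016 and 1011 normalized counts in XX Kdm6b-null and 988 and 619 in XX wild type libraries (0.37, SE 0.23), or 0.71 without wild type replicate 1 and 0.04 without replicate 2, with limma adjusted p = 0.022 in the first setting. Every null library of a sex thus lay above its wild type libraries, the closest pair being 1011 against 988 in XX. Per kb, the ratio of Col4a6 to Col4a5 was 0.307 and 0.316 in XY Kdm6b-null and 0.258 and 0.269 in XY wild type libraries. In XX it was 0.338 and 0.341 in Kdm6b-null and 0.301 and 0.286 in wild type libraries, so the groups did not overlap in either sex.

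Col4a3 and Col4a4, the chains that join Col4a5 in the mature kidney glomerulus, were scarce. Col4a3 had 22.4 and 13.4 normalized counts in XY Kdm6b-null, 15.8 and 18.9 in XY wild type libraries, then 9.96 and 14.1 normalized counts in XX Kdm6b-null and 20.4 and 19.2 in XX wild type libraries. Col4a4 had 19.5 and 8.23 in XY Kdm6b-null, 12.9 and 9.97 in XY wild type libraries, then 14.0 and 14.1 in XX Kdm6b-null and 26.2 and 46.5 in XX wild type libraries. It was lower in XX Kdm6b-null than in XX wild type (-1.26, SE 0.42, unadjusted p = 0.028, adjusted p = 0.32 by limma), the opposite side to Col4a1 and Col4a2, and its value was -1.66 without wild type replicate 1 and -0.85 without replicate 2.

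**Figure D3:**
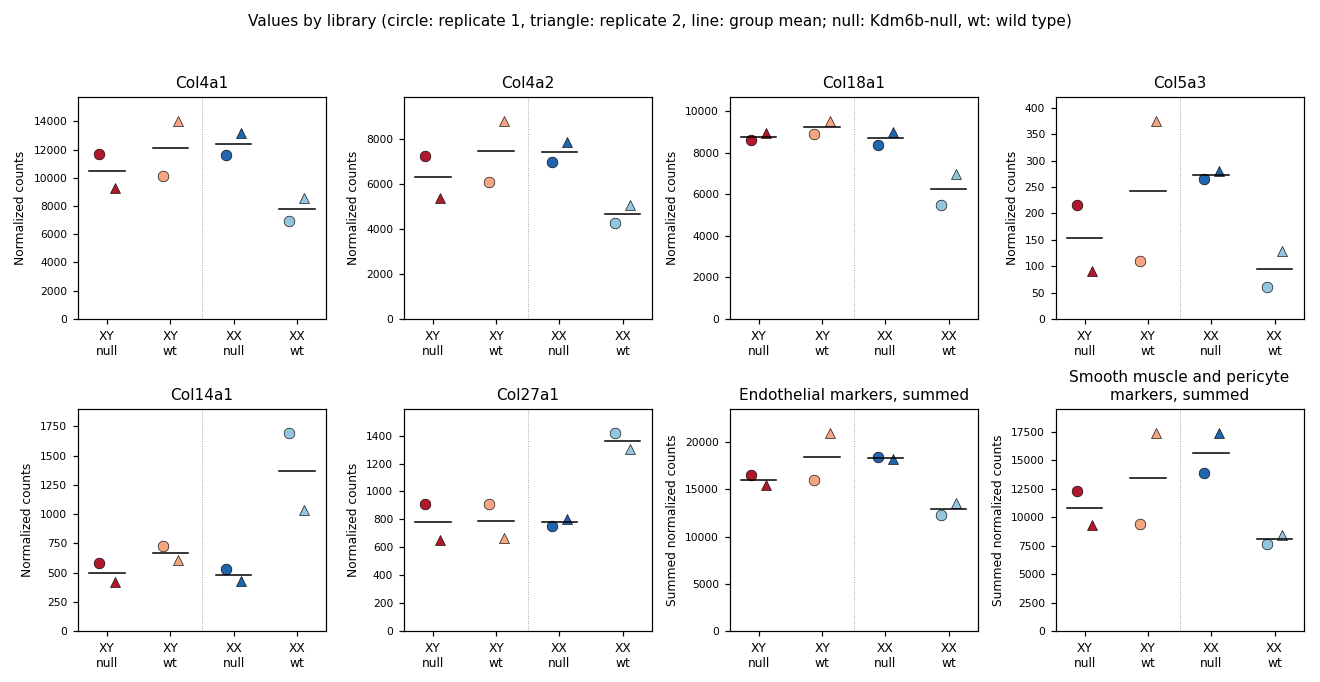
Normalized counts of 6 chains and summed normalized counts of endothelial and of smooth muscle and pericyte markers in each library; circles are replicate 1, triangles replicate 2 and lines group means, and the sexes were normalized separately. In XX the 2 null libraries lie above both wild type libraries for Col4a1, Col4a2, Col18a1, Col5a3 and both marker sums, and below them for Col14a1 and Col27a1.

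The multiplexin Col18a1, the basement membrane collagen whose tail is cut to endostatin, had 8384 and 9015 normalized counts in XX Kdm6b-null and 5492 and 6989 in XX wild type libraries (0.49, SE 0.15, unadjusted p = 0.021 by limma). The groups did not overlap, the value was 0.31 with XX wild type replicate 1 left out and 0.66 with replicate 2 left out, and the authors' deposited table gave an adjusted p of 0.074. In XY it had 8608 and 8938 normalized counts in XY Kdm6b-null and 8903 and 9536 in XY wild type libraries (-0.07, SE 0.08). Col15a1, the other multiplexin, had 1262 and 901 in XY Kdm6b-null, 1107 and 1036 in XY wild type libraries, then 1172 and 1066 normalized counts in XX Kdm6b-null and 1366 and 1108 in XX wild type libraries, with overlapping groups in both sexes.

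Other genes of the basement membrane were described with the same fits. Of the 16 partner genes, 14 had positive XX log2 fold changes, with a median of 0.27 against 0.00 over all genes, or 0.26 without wild type replicate 1 and 0.29 without replicate 2. Both null libraries lay above both wild type libraries for 10 of the 16 (27.0% of all genes) and below them for 0 (22.5%). Hspg2, which encodes perlecan, had 13333 and 12784 normalized counts in XX Kdm6b-null and 7147 and 8427 in XX wild type libraries (0.75, SE 0.13, or 0.63 without wild type replicate 1 and 0.87 without replicate 2). Lama1, a laminin chain of early basement membranes, had 2353 and 2931 normalized counts in XX Kdm6b-null and 1520.2 and 1611 in XX wild type libraries (0.75, SE 0.13, or 0.70 without wild type replicate 1 and 0.79 without replicate 2). In the authors' deposited table Hspg2, Lama1, Lama2 and Pxdn, the peroxidase that cross-links type IV collagen, rose in XX, 4 of 16 against 1.95% of all genes. In XY the median was 0.03 with 9 positive and 7 negative, and the smallest p-values belonged to Pxdn (0.18) and the vessel laminin chain Lama4 (-0.19). No partner of any list passed by limma after adjustment over all genes.

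Among fibrillar chains, Col1a1 and Col1a2 of type I collagen overlapped between genotypes in XY. Col1a1 had 25221 and 17290.2 normalized counts in XY Kdm6b-null and 16737 and 21896 in XY wild type libraries (0.13, SE 0.22). Col1a2, its partner in type I collagen, had 23174 and 18047 normalized counts in XY Kdm6b-null and 19639.6 and 23631 in XY wild type libraries (-0.08, SE 0.16). Col3a1 had 32242 and 25215 normalized counts in XY Kdm6b-null and 32879.7 and 32851 in XY wild type libraries (-0.20, SE 0.15), with both null libraries below both wild type libraries, the closest values being 32242 and 32851.

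In XX gonads Col1a1 did not overlap between genotypes but Col1a2 did. Col1a1 had 22141 and 23652 normalized counts in XX Kdm6b-null and 19399 and 12946 in XX wild type libraries (0.53, SE 0.22, unadjusted p = 0.060, adjusted p = 0.37 by limma). Its value was 0.82 without wild type replicate 1 and 0.24 without replicate 2, with limma adjusted p = 0.020 and 0.13. Col1a2 had 17921 and 20401 normalized counts in XX Kdm6b-null and 24746 and 16914 in XX wild type libraries (-0.10, SE 0.22, or 0.18 without wild type replicate 1 and -0.37 without replicate 2). Col3a1 had 28705 and 32960.2 normalized counts in XX Kdm6b-null and 35654 and 27170.5 in XX wild type libraries (-0.02, SE 0.21, or 0.18 without wild type replicate 1 and -0.21 without replicate 2), with groups that overlapped for both. Per kb, Col1a1 stood at 2.34 and 2.19 times Col1a2 in XX Kdm6b-null and at 1.48 and 1.45 times in XX wild type libraries. In XY the ratio was 2.06 and 1.81 in Kdm6b-null and 1.61 and 1.75 in wild type libraries. The null libraries had the higher ratio in both sexes without overlap, and no test of a ratio was made with 2 libraries a group. Of other ratios formed, Col4a1 to Col4a2, Col3a1 to Col5a2, Col6a1 to Col6a2 and Col6a3 to Col6a1 overlapped between genotypes in XY. Col8a1 to Col8a2, Col2a1 to Col11a1 and Col9a1 to Col9a2 overlapped there too, and Col9a3 to Col9a2 overlapped in XX. The share of all gene pairs that separate in both sexes is not given, so no ratio here has a background. The 8 markers of interstitial and mesenchymal progenitors, cells that make these fibrils, summed to 37565 and 36081 normalized counts in XX Kdm6b-null and 32099 and 30030.1 in XX wild type libraries, 6 of 8 positive, with XX medians of 0.41 without wild type replicate 1 and 0.18 without replicate 2. Their XY sums were 36118 and 34709 in Kdm6b-null and 31118 and 32899.9 in wild type libraries. In XY, however, 4 of the 8 log2 fold changes were positive and 4 negative, with a median of 0.02. The part of these markers in the ratios was not tested.

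Type V chains, which limit the width of type I fibrils, lay on opposite sides in XX. Col5a1 had 8098 and 8483 normalized counts in XX Kdm6b-null and 7419.8 and 5899 in XX wild type libraries (0.33, SE 0.14, or 0.49 without wild type replicate 1 and 0.16 without replicate 2). Col5a2 had 4707 and 4817 normalized counts in XX Kdm6b-null and 6492 and 5895 in XX wild type libraries (-0.38, SE 0.10, unadjusted p = 0.014 by limma), and its adjusted p was 0.078 in the authors' deposited table. The limma value of Col5a2 was -0.31 without wild type replicate 1 and -0.45 without replicate 2. The ratio of Col5a1 to Col5a2 per kb was 1.94 and 1.99 in XX Kdm6b-null and 1.29 and 1.13 in XX wild type libraries. In XY the ratio was 2.04 and 2.07 in Kdm6b-null and 1.50 and 1.91 in wild type libraries, also without overlap. Col5a1 itself had 9331 and 6405 normalized counts in XY Kdm6b-null and 6264 and 7663 in XY wild type libraries, and Col5a2 had 5157 and 3497 normalized counts in XY Kdm6b-null and 4719.7 and 4538 in XY wild type libraries, each with overlapping groups.

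Col5a3, the least abundant type V chain (ENSMUSG00000004098.7, chromosome 9, 20770050 to 20815067), was higher in both XX Kdm6b-null libraries. In XX it had 266 and 279.8 normalized counts in XX Kdm6b-null and 60.2 and 128 in XX wild type libraries (1.62, SE 0.37, unadjusted p = 0.0059 by limma). The authors' deposited table gave 1.53 with adjusted p = 0.0078, and the value was 1.08 with XX wild type replicate 1 left out and 2.16 with replicate 2 left out. Its XY values were 216 and 91.6 normalized counts in XY Kdm6b-null and 111 and 376 in XY wild type libraries (-0.54, SE 0.66), and the groups overlapped. Its highest XY library, wild type replicate 2, was also the highest for Col4a1, Col4a2 and the smooth muscle and endothelial sums. Without that library its XY log2 fold change was 0.34, and without XY Kdm6b-null replicate 2 it was 0.08.

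Col27a1, a fibrillar chain best known from cartilage (ENSMUSG00000045672.15, chromosome 4, 63214004 to 63334991), had the smallest unadjusted p of the 41 chains in XX. It had 749 and 806 normalized counts in XX Kdm6b-null and 1420.3 and 1301 in XX wild type libraries (-0.81, SE 0.10, unadjusted p = 0.00042 by limma). It fell in the authors' deposited table by 0.81 on the log2 scale (adjusted p = 1.3e-04), and the limma value was -0.74 with XX wild type replicate 1 left out and -0.87 with replicate 2 left out. In XY it had 908 and 654 normalized counts in XY Kdm6b-null and 911 and 669 in XY wild type libraries (-0.02, SE 0.21), with overlapping groups.

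Among the remaining fibrillar chains, Col2a1, the main collagen of cartilage, had 3777 and 2268 normalized counts in XY Kdm6b-null and 2619 and 2611 in XY wild type libraries. In XX it had 3513 and 3570.2 normalized counts in XX Kdm6b-null and 1669.7 and 3486 in XX wild type libraries (0.55, SE 0.34, or 0.02 without wild type replicate 1 and 1.08 without replicate 2), with XX wild type replicate 1 alone low. Col11a1, Col11a2 and Col24a1, the other minor chains, had log2 fold changes of 0.05, -0.10 and 0.55 in XY and 0.13, 0.08 and -0.18 in XX, and none had an unadjusted p under 0.05 by limma. In XX, Col11a1 had 0.03 without wild type replicate 1 and 0.23 without replicate 2, Col11a2 had 0.21 without wild type replicate 1 and -0.05 without replicate 2 and Col24a1 had -0.09 without wild type replicate 1 and -0.26 without replicate 2. Of 8 cartilage markers, 4 averaged at least 10 normalized counts. Ucma was at 0 in all 8 libraries, Snorc had at most 2.02, Matn1 at most 3.99 and Cnmd at most 9.96 normalized counts. Comp had 6.07 to 13.6, Matn3 4.85 to 39.4 and Acan, the aggrecan core protein, 15.9 to 38.6 normalized counts. Hapln1, which links hyaluronan, stood far above these, at 1704 and 1937 normalized counts in XX Kdm6b-null and 909 and 1142 in XX wild type libraries. Of the 3 cartilage markers tested in XX, 2 were positive and 1 negative, with log2 fold changes from -0.98 to 1.45. The median was 0.83, or 0.52 without wild type replicate 1 and 1.00 without replicate 2. In XY, 3 of 4 were positive and 1 negative. The part of these markers in the Col2a1 values was not tested.

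Of the fibril-associated chains, which sit on the surface of fibrils, Col9a1 was higher and Col14a1 lower in both XX Kdm6b-null libraries. Col9a1, a type IX chain (ENSMUSG00000026147.16, chromosome 1, 24177610 to 24252684), had 1950.2 and 2413 normalized counts in XX Kdm6b-null and 874 and 1405 in XX wild type libraries (0.97, SE 0.25, unadjusted p = 0.0095 by limma). It rose in the authors' deposited table (0.94, adjusted p = 0.0080), and the limma value was 0.63 with XX wild type replicate 1 left out and 1.31 with replicate 2 left out. Its XY values were 2391 and 1109 normalized counts in XY Kdm6b-null and 1417 and 1564 in XY wild type libraries (0.13, SE 0.34), and the null pair spanned the wild type pair. Its partner chains in type IX collagen lay on the other side in XX. Col9a2 had 433 and 471 normalized counts in XX Kdm6b-null and 627 and 536 in XX wild type libraries (-0.36, SE 0.13, unadjusted p = 0.038 by limma), or -0.25 without wild type replicate 1 and -0.47 without replicate 2. Col9a3 had 180.4 and 173 normalized counts in XX Kdm6b-null and 252 and 195 in XX wild type libraries (-0.33, SE 0.18, or -0.14 without wild type replicate 1 and -0.51 without replicate 2). In XY, Col9a3 had 136 and 133 normalized counts in XY Kdm6b-null and 175 and 187 in XY wild type libraries (-0.43, SE 0.16, unadjusted p = 0.036, adjusted p = 0.96 by limma), while Col9a2 had 552 and 318 normalized counts in XY Kdm6b-null and 353 and 285 in XY wild type libraries. Every null library thus had less Col9a3 than the wild type libraries of its sex. Per kb, Col9a1 stood at 2.75 and 3.13 times Col9a2 in XX Kdm6b-null and 0.852 and 1.60 times in XX wild type libraries. The XY ratio was 2.645 and 2.129 in Kdm6b-null and 2.45 and 3.35 in wild type libraries, with overlapping groups. Col19a1, which lies tail to tail with Col9a1 9205 bases away, had 0 and 5.05 normalized counts in XX Kdm6b-null and 4.85 and 16.2 in XX wild type libraries. In XY it had 1.95 and 1.03 normalized counts in XY Kdm6b-null and 0 and 2.99 in XY wild type libraries.

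Col14a1, a fibril-associated chain of connective tissue (ENSMUSG00000022371.15, chromosome 15, 55307750 to 55520803), had 532 and 426 normalized counts in XX Kdm6b-null and 1696 and 1037 in XX wild type libraries. Its log2 fold change was -1.48, SE 0.26, with unadjusted p = 0.0018 and adjusted p = 0.26 by limma. It fell in the authors' deposited table by 1.51 on the log2 scale (adjusted p = 4.6e-06), and the limma value was -1.12 with XX wild type replicate 1 left out and -1.83 with replicate 2 left out. Its XY values were 579 and 422 normalized counts in XY Kdm6b-null and 724 and 610.1 in XY wild type libraries (-0.43, SE 0.18, unadjusted p = 0.059 by limma). All null libraries thus lay below the wild type libraries of their sex. With each sex taken singly, 16.3% of all genes lay so in XY and 22.5% in XX. Col12a1, a related chain of tendon and fascia, was more abundant and overlapped in both sexes, at 4673 and 2230.5 in XY Kdm6b-null, 3707 and 6139.9 in XY wild type libraries, then 3031 and 5002 normalized counts in XX Kdm6b-null and 4523 and 3815 in XX wild type libraries. Col16a1 had 556 and 499 normalized counts in XX Kdm6b-null and 2131 and 669.6 in XX wild type libraries (-1.18, SE 0.52, or -0.35 without wild type replicate 1 and -2.01 without replicate 2). In XY it had 685 and 477 normalized counts in XY Kdm6b-null and 665 and 580.2 in XY wild type libraries, overlapping. Col22a1 and Col20a1 had XX log2 fold changes of 1.02 and -0.99. Col22a1 had 339 and 382 normalized counts in XX Kdm6b-null and 102 and 304 in XX wild type libraries, and its value was 0.24 without wild type replicate 1 and 1.81 without replicate 2. Col20a1 had 49.8 and 39.4 normalized counts in XX Kdm6b-null and 147 and 53.6 in XX wild type libraries, and its value was -0.27 without wild type replicate 1 and -1.71 without replicate 2. In each of the last 3 chains XX wild type replicate 1 lay beyond the other XX libraries, and none had an unadjusted p under 0.05 by limma.

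Type VI chains, which form beaded filaments around cells, were among the chains for which XX wild type replicate 1 stood apart. Their 6 transcripts summed to 3455 and 3004 normalized counts in XX Kdm6b-null and 9828 and 3322 in XX wild type libraries. In XY the sums were 4482 and 2706 in Kdm6b-null and 3677 and 3747 in wild type libraries. Col6a1 and Col6a2, neighbours on chromosome 10, kept a ratio of 1.90 to 2.24 per kb in all 8 libraries. Col6a1 had 1388 and 1197 normalized counts in XX Kdm6b-null and 3194 and 1231 in XX wild type libraries, and Col6a2 had 1178 and 1043 normalized counts in XX Kdm6b-null and 3203 and 1165 in XX wild type libraries. Col6a3, the longest chain of the trimer, had 785 and 681 normalized counts in XX Kdm6b-null and 2679 and 794 in XX wild type libraries, and Col6a6 had 53.8 and 42.4 normalized counts in XX Kdm6b-null and 685 and 76.9 in XX wild type libraries. In all 4 chains XX wild type replicate 1 was the highest of the 8 libraries, and replicate 2 lay within the range of the XY libraries.

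The XX log2 fold changes of these chains were -0.62, SE 0.43 for Col6a1, -0.80, SE 0.46 for Col6a2, -1.00, SE 0.55 for Col6a3 and -2.24, SE 0.98 for Col6a6. Without XX wild type replicate 1 they were 0.07, -0.07, -0.12 and -0.67, none of them called by limma. Without replicate 2 they were -1.31, -1.53, -1.87 and -3.81, all called at adjusted p = 0.0013 to 0.0023. In XY, Col6a1 had 1561 and 1068 normalized counts in XY Kdm6b-null and 1243 and 1407 in XY wild type libraries, Col6a2 had 1476 and 963 normalized counts in XY Kdm6b-null and 1159 and 1246 in XY wild type libraries, and Col6a3 had 1237 and 578 normalized counts in XY Kdm6b-null and 1069 and 984 in XY wild type libraries. Col6a6 had 154 and 59.7 normalized counts in XY Kdm6b-null and 153 and 56.8 in XY wild type libraries, and all 4 overlapped. The low chain Col6a5 had 6.98 and 3.03 normalized counts in XX Kdm6b-null and 32.0 and 15.2 in XX wild type libraries (-2.03, SE 0.63, unadjusted p = 0.021 by limma), or -1.51 without wild type replicate 1 and -2.54 without replicate 2. Col6a4 had 47.8 and 15.4 in XY Kdm6b-null, 43.5 and 49.8 in XY wild type libraries, then 42.8 and 38.4 normalized counts in XX Kdm6b-null and 35.9 and 39.4 in XX wild type libraries.

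The list of 13 small proteoglycans and fibril regulators was compared library by library. Its summed level was 60511 and 65717 normalized counts in XX Kdm6b-null and 51254 and 41843 in XX wild type libraries. Fn1, whose values are given below, supplied a large part of this sum, so the sum does not describe the list. Of the 13 genes, 10 had negative XX log2 fold changes, with a median of -0.17. XX wild type replicate 1 was the highest of the 4 XX libraries for 10 of the 13 genes and the lowest for 2, against 31.9% and 36.4% of all genes, and for 5 and 1 of the 6 type VI chains. Fn1 was 1 of those 2 genes. Replicate 1 was also the highest XX library for 22 of all 41 chains and 5 of 8 fibril-associated chains. The same held for 6 of 8 germ cell and 6 of 10 macrophage markers, but for 0 of 10 endothelial markers. A high level in this library was thus not particular to type VI chains or this list. Among genes singled out after their values were seen, Dcn, the proteoglycan decorin, had 479 and 497 normalized counts in XX Kdm6b-null and 2438 and 792 in XX wild type libraries. Lum (lumican) had 335 and 358 normalized counts in XX Kdm6b-null and 1318 and 442 in XX wild type libraries, and Ogn (osteoglycin) had 9.96 and 16.2 normalized counts in XX Kdm6b-null and 417 and 50.6 in XX wild type libraries. From the breakdown list Ctsk, the collagen-degrading cathepsin K, had 39.9 and 30.3 normalized counts in XX Kdm6b-null and 172 and 48.6 in XX wild type libraries, and replicate 1 was the highest for 6 of the 13 genes of that list. The part of these genes in the type VI values was not tested.

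**Figure D4:**
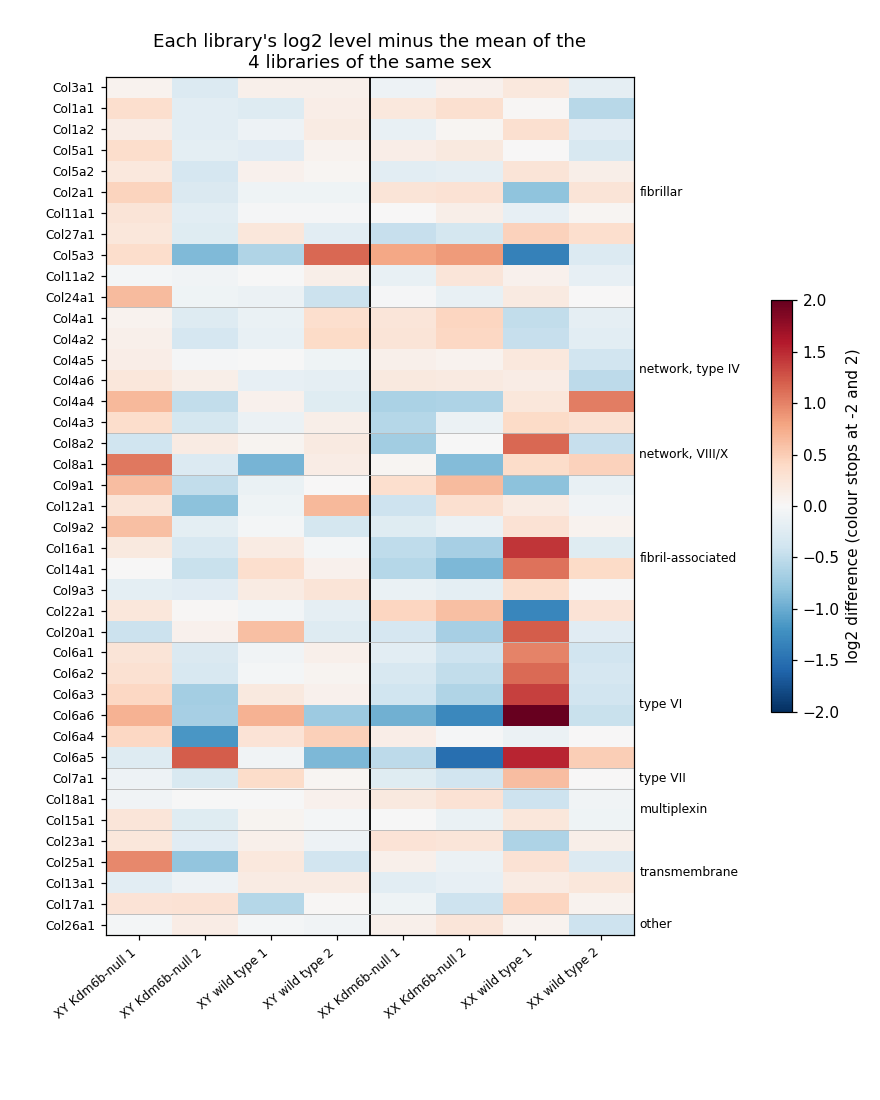
Log2(normalized count + 1) of each of the 41 chains in each library, minus the mean of the 4 libraries of the same sex; red is above and blue below that mean, and the colour scale stops at -2 and 2. XX wild type replicate 1 is red for Col6a1, Col6a2, Col6a3, Col6a6, Col16a1 and Col14a1 and blue for Col5a3, Col22a1, Col2a1 and Col9a1.

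The anchoring fibril chain Col7a1, which ties epithelial basement membranes to the stroma, had 388 and 339 normalized counts in XY Kdm6b-null and 535 and 428 in XY wild type libraries (-0.40, SE 0.15, unadjusted p = 0.042 by limma). In XX it had 292 and 264 normalized counts in XX Kdm6b-null and 532 and 345 in XX wild type libraries (-0.62, SE 0.23, unadjusted p = 0.038 by limma), or -0.31 without wild type replicate 1 and -0.94 without replicate 2, with limma adjusted p = 0.29 and 0.0079. Both null libraries lay below both wild type libraries in each sex, and the adjusted p was 0.99 in XY and 0.34 in XX. Of the transmembrane chains Col13a1, a surface collagen of cell adhesions, followed the same order. It had 270.2 and 292 normalized counts in XY Kdm6b-null and 350.2 and 352 in XY wild type libraries (-0.32, SE 0.12, unadjusted p = 0.037 by limma). In XX it had 223 and 231 normalized counts in XX Kdm6b-null and 289 and 302 in XX wild type libraries (-0.38, SE 0.13, unadjusted p = 0.033 by limma), or -0.41 without wild type replicate 1 and -0.35 without replicate 2. Col23a1 had 1913 and 1398 in XY Kdm6b-null, 1746 and 1523 in XY wild type libraries, then 1947 and 1904 normalized counts in XX Kdm6b-null and 1049.7 and 1746 in XX wild type libraries. Col25a1 had 1544 and 460.1 in XY Kdm6b-null, 915 and 605 in XY wild type libraries, then 1186 and 1020.4 in XX Kdm6b-null and 1341 and 908 in XX wild type libraries. Its XY Kdm6b-null libraries lay farther apart than the pairs of its other groups. Col17a1, the hemidesmosome collagen, had 20.5 and 20.6 in XY Kdm6b-null, 10.9 and 16.9 in XY wild type libraries, then 17.9 and 14.1 in XX Kdm6b-null and 26.2 and 20.2 in XX wild type libraries.

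Of the short-chain network genes, Col8a1, known from vessel walls and the cornea, had 243 and 129 normalized counts in XX Kdm6b-null and 306 and 325 in XX wild type libraries (-0.83, SE 0.31, unadjusted p = 0.042 by limma), or -0.87 without wild type replicate 1 and -0.78 without replicate 2. Without XX Kdm6b-null replicate 2 its value was -0.37, and without null replicate 1 it was -1.28. Its XY values were 233 and 91.6 normalized counts in XY Kdm6b-null and 58.4 and 124 in XY wild type libraries, overlapping. Col8a2, its partner, had 381 and 561 in XY Kdm6b-null, 523 and 569 in XY wild type libraries, then 297 and 482 normalized counts in XX Kdm6b-null and 1074 and 352 in XX wild type libraries, again with XX wild type replicate 1 highest. Col26a1, a chain described from mouse testis and ovary, had 3281 and 3729 normalized counts in XY Kdm6b-null and 3271 and 3203 in XY wild type libraries (0.11, SE 0.09). Its XX values were 3156 and 3509.6 normalized counts in XX Kdm6b-null and 3098 and 2225 in XX wild type libraries (0.34, SE 0.18, or 0.58 without wild type replicate 1 and 0.10 without replicate 2), so both null libraries lay above both wild type libraries in each sex by small margins.

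**Figure D5:**
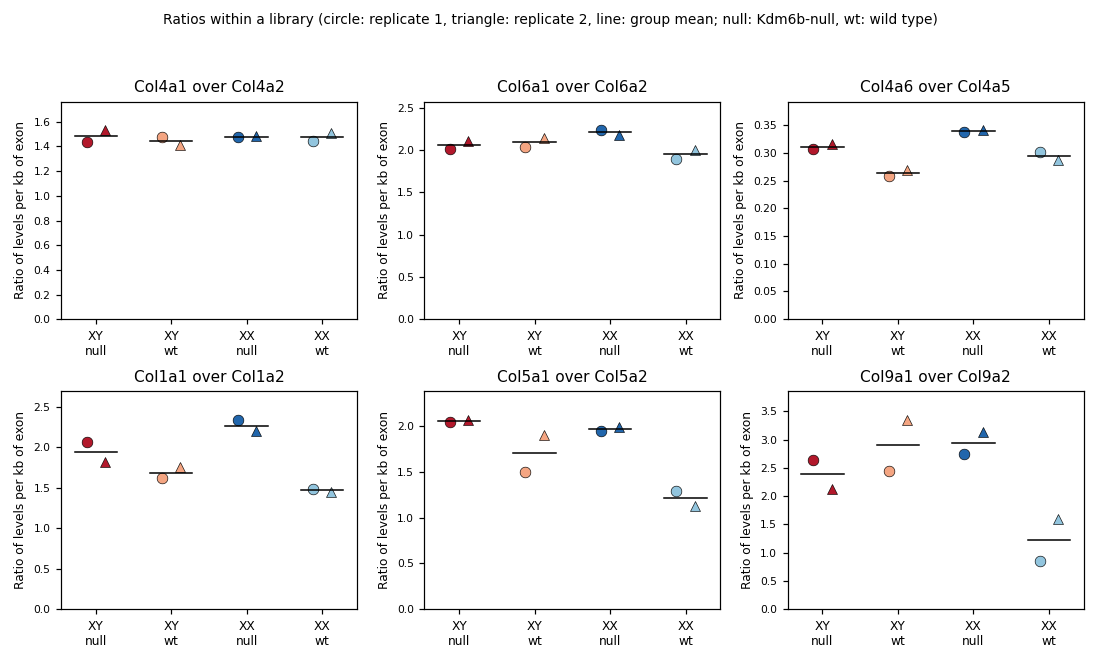
Ratio of the levels per kb of exon of paired chains within each library; circles are replicate 1, triangles replicate 2 and lines group means, 2 libraries per group. Col4a1 over Col4a2 stays between 1.41 and 1.53. Col1a1 over Col1a2 and Col5a1 over Col5a2 are higher in Kdm6b-null than in wild type libraries of the same sex. Col6a1 over Col6a2 and Col9a1 over Col9a2 overlap between genotypes in XY.

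The effect of Kdm6b loss was also compared between the sexes, as the XY difference minus the XX difference over 16943 genes. No chain passed by limma after adjustment over all genes, where 0.0% of genes passed, and the smallest adjusted p of a chain was 0.57. At an unadjusted p under 0.05, 3 of 41 chains had a positive difference (2.7% of all genes) and 4 of 41 a negative one (5.71%). The negative ones were Col4a1 (-0.87), Col4a2 (-0.91), Col18a1 (-0.56) and Col5a3 (-2.16). Their 95% intervals ran -1.50 to -0.24 for Col4a1, -1.58 to -0.23 for Col4a2, -0.97 to -0.14 for Col18a1 and -4.22 to -0.09 for Col5a3. Col14a1 (1.05, SE 0.36), Col27a1 (0.79, SE 0.27) and the low chain Col6a5 (2.99, SE 0.96) had positive differences. With 1 of the 8 libraries left out these ran from -1.11 to -0.64 for Col4a1, -1.17 to -0.64 for Col4a2, -0.73 to -0.39 for Col18a1, -3.03 to -1.28 for Col5a3, 0.69 to 1.40 for Col14a1, 0.55 to 1.02 for Col27a1 and 2.26 to 3.72 for Col6a5. All 10 endothelial and all 6 smooth muscle markers also had negative differences, with medians of -0.65 and -1.14. The median difference over the 41 chains was 0.06, against -0.02 over all genes.

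Genes that make, trim and remove collagen were described with the same fits. In the list of folding and modifying enzymes, 12 of 22 were positive in XX (median 0.09, or 0.20 without wild type replicate 1 and -0.02 without replicate 2) and 9 of 22 in XY (median -0.02). P4ha3, a prolyl hydroxylase subunit, had 1046 and 1109 normalized counts in XX Kdm6b-null and 776 and 619 in XX wild type libraries (0.64, SE 0.14, or 0.80 without wild type replicate 1 and 0.47 without replicate 2) and rose in the authors' deposited table (adjusted p = 0.036). The chaperone gene Fkbp10 came next in XX (0.33, or 0.41 without wild type replicate 1 and 0.26 without replicate 2), and Plod2, a lysyl hydroxylase gene, and Mia2 had the smallest p-values in XY (-0.13 and -0.55). Of 12 processing and cross-linking genes tested, 8 were positive in XX (median 0.33, or 0.34 without wild type replicate 1 and 0.06 without replicate 2) and 5 in XY (median -0.06). Lox, the main collagen cross-linking oxidase, had 119.6 and 204 normalized counts in XX Kdm6b-null and 682 and 439 in XX wild type libraries (-1.80, SE 0.33, or -1.48 without wild type replicate 1 and -2.12 without replicate 2), and it fell in the authors' deposited table (adjusted p = 3.6e-05). Its relative Loxl2 went the other way, with 2521 and 2558 normalized counts in XX Kdm6b-null and 1572 and 1826 in XX wild type libraries (0.58, SE 0.11, or 0.48 without wild type replicate 1 and 0.69 without replicate 2), and rose in the authors' deposited table (adjusted p = 0.0076). In XY the smallest p-values were those of Loxl3 (0.16) and Loxl4 (-0.44).

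Among 7 collagen receptor genes, 5 were negative in each sex, with medians of -0.18 in XY and -0.04 in XX, the XX value being 0.06 without wild type replicate 1 and -0.06 without replicate 2. Ddr2, a receptor for fibrillar collagen, had 2858 and 2504 normalized counts in XY Kdm6b-null and 3466 and 3460.3 in XY wild type libraries (-0.37, SE 0.09, unadjusted p = 0.0066 by limma), without overlap. Ddr1, the epithelial relative, had 1979 and 2067 normalized counts in XY Kdm6b-null and 1678 and 1828 in XY wild type libraries (0.21, SE 0.08), and in XX Itga10 (0.30, or 0.28 without wild type replicate 1 and 0.32 without replicate 2) and Ddr2 (-0.09, or 0.07 without wild type replicate 1 and -0.26 without replicate 2) had the smallest p-values. Of the small proteoglycans and fibril regulators, 3 of 11 were positive in XY and 3 of 13 in XX, with medians of -0.09 in XY and -0.17 in XX, the XX value being 0.27 without wild type replicate 1 and -0.74 without replicate 2. Lum (-0.59) and Postn (-0.58), which encodes periostin, led the XY list. Fn1, the fibronectin on which fibrils assemble, had 36703 and 38897 normalized counts in XX Kdm6b-null and 20188 and 20512 in XX wild type libraries (0.89, SE 0.15, or 0.88 without wild type replicate 1 and 0.90 without replicate 2) and rose in the authors' deposited table (adjusted p = 1.2e-11). In XY, Fn1 had 36430.3 and 21983 normalized counts in XY Kdm6b-null and 24144 and 37814 in XY wild type libraries, overlapping as Col4a1 did. Ogn had an XX log2 fold change of -3.42, SE 0.98, or -1.91 without wild type replicate 1 and -4.93 without replicate 2.

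Among 13 breakdown genes tested, 7 were positive in XX (median 0.14, or 0.32 without wild type replicate 1 and -0.09 without replicate 2) and 6 in XY (median -0.005). Mrc2, a receptor that takes up collagen fragments, had 4663 and 4541 normalized counts in XX Kdm6b-null and 3411 and 3357 in XX wild type libraries (0.44, SE 0.09, or 0.45 without wild type replicate 1 and 0.43 without replicate 2). Mmp14, the membrane collagenase, had 5719 and 6019 normalized counts in XX Kdm6b-null and 4329.9 and 4509 in XX wild type libraries (0.41, SE 0.10, or 0.38 without wild type replicate 1 and 0.44 without replicate 2). Both rose in the authors' deposited table, with adjusted p = 0.017 for Mrc2 and 0.037 for Mmp14. In XY the smallest p-values were those of the inhibitor Timp3 (-0.32) and the gelatinase Mmp9 (-2.23).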

How the data were processed

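RNA of 8 libraries from mouse gonads was prepared with a dUTP kit and sequenced in paired reads of 100 bases, per the labels' protocols. The submitters' processing notes name DESeq2 2.11.40.8, featureCounts 2.0.8, STAR 2.7.11 and cutadapt 4.9, and build GRCm38. Which annotation release and strand setting were used is not stated there. The deposited normalized counts are a signal that the authors obtained by scaling each library within its sex. The authors' deposited comparison also gives a log2 fold change, a Wald score, an adjusted p-value and a p-value per gene, in each sex.

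Depth was worked out from the step between low values, taken as 1 read, of which all values were whole multiples within 1e-06; no count model was fitted here to these reads. limma 3.58.1 in R 4.3.3 was fitted to log2(normalized count + 1) with a variance trend, over genes with a mean of at least 10, with Benjamini-Hochberg adjustment over all genes and a threshold of 0.05. Each sex was fitted alone on 4 libraries (2 residual degrees of freedom), and the difference between sexes on all 8. The fit was run on simulated data, where the check was on the median estimated fold change and not on calls. The simulated spread was set alike for all genes and not taken from these libraries. Levels per kb used exon lengths of a GENCODE annotation of GRCm38. The collagen genes, partner lists and markers were chosen with earlier results of these data known. Values are given per library for up to 4 of the most abundant chains of each class and for Col1a1, Col5a3 and Col9a3. They are also given for chains with an unadjusted p or deposited adjusted p under 0.05 and for their neighbouring partners. Hapln1, Dcn, Lum, Ogn, Ctsk, Col2a1, Col20a1 and Col22a1 were added after their values were seen. Alternatives were pseudocounts of 0.5 and 5, no filter or a mean of 50, median centring, quantile normalization, no trend, all 8 libraries in 1 fit, a replicate block, each library left out and the authors' deposited comparison. The labels do not say whether pools came from separate litters.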

Additional observations from a re-analysis of the deposited data

Results flagged for a closer look

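For 2 chains the genotypes lay on opposite sides in the sexes. Col24a1, a minor fibrillar chain, was higher in both XY Kdm6b-null libraries than in either XY wild type library (log2 fold change 0.55) and lower in both XX Kdm6b-null libraries than in either XX wild type library (-0.18). The difference, XY minus XX, was 0.73 (limma adjusted p = 0.61). Col17a1, the hemidesmosome collagen, had 0.56 in XY and -0.50 in XX, a difference of 1.07 (limma adjusted p = 0.61). Such a split was found for 878 of 16943 genes, or 5.18%, and for 2 of the 41 chains, which is near that share. The split is therefore not a result about these chains.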

How the results depend on the processing

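In XX no chain passed by limma, whereas the authors' deposited comparison called 6 chains and leaving out 1 library gave 0 to 21 called chains. The XX median log2 fold change ran from -0.29 to 0.029, the XY median from -0.26 to 0.22 and the median difference from -0.11 to 0.30 when 1 library was left out. With 1 library left out the sign turned at least once for 24 of the 40 chains tested in XY, 9 of 41 in XX and 20 of 41 in the difference. Among chains whose fold changes are printed, signs turned in XY for Col1a1 (-0.15 to 0.40), Col1a2 (-0.26 to 0.11), Col5a2 (-0.40 to 0.16), Col5a3 (-1.41 to 0.34), Col4a1 (-0.43 to 0.038), Col4a2 (-0.50 to 0.029), Col27a1 (-0.26 to 0.22), Col9a1 (-0.42 to 0.68) and Col11a1 (-0.18 to 0.28), none of them called. In XX they turned for Col1a2 (-0.37 to 0.18), Col3a1 (-0.21 to 0.18), Col4a5 (-0.13 to 0.47), Col6a1 (-1.31 to 0.066) and Col11a2 (-0.11 to 0.28), and quantile normalization gave 0.037 for Col3a1. In the difference they turned for Col5a2 (-0.027 to 0.53) and Col9a3 (-0.29 to 0.082). The cause was not tested. Pseudocounts, filters, median centring, quantile normalization and the variance trend moved no call of a chain in any comparison.

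Over all genes limma called 0 in XY and 0 in XX, whereas the deposited comparison called 72 in XY and 407 in XX. Without the trend limma called 1 gene in XY, and in 1 fit over 8 libraries it called 10 in XX. With 1 library left out it called up to 2 genes in XY, up to 3489 in XX and up to 29 in the difference. The replicate block gave 23 genes in XY, 2 in XX and 0 in the difference, and 0 chains in each. Same-numbered libraries deviated together with a correlation of 0.245 in XY and -0.0616 in XX, and the labels do not pair them.

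With 2 libraries a group limma on all libraries called no chain at any size of change, so a p that missed the threshold does not show that levels were alike. Chains with a mean under 10 normalized counts were not tested.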

Other observations

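The median absolute log2 difference between the 2 libraries of a group was 0.52 over the chains and 0.18 over all genes in XY Kdm6b-null, and 0.20 and 0.13 in XY wild type gonads. It was 0.16 and 0.12 in XX Kdm6b-null, and 0.55 and 0.24 in XX wild type gonads. A difference of more than 1 on the log2 scale was found for 10 of 41 chains in XY Kdm6b-null (5.24% of all genes), 3 in XY wild type (3.81%), 0 in XX Kdm6b-null (3.64%) and 11 in XX wild type gonads (7.94%). These values were looked at after the comparisons and no test was made.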
